A study of Mus musculus with 12 samples.

Results

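Alcohol dehydrogenases and aldehyde dehydrogenases oxidize alcohols to aldehydes and aldehydes to carboxylic acids. In animals exposed to the solvent ethylene glycol monomethyl ether they act in sequence to form methoxyacetic acid (MAA), the acid that damages the testis, and members of the same families oxidize retinol to retinal and retinal to retinoic acid, which the testis needs for the formation of sperm. Leydig cells are the androgen-producing cells of the testis. The genes described here are 3 alcohol dehydrogenase genes, Adh1, Adh5 and Adh7, and 7 aldehyde dehydrogenase genes, Aldh1a1, Aldh1a2, Aldh1a3, Aldh2, Aldh3a1, Aldh3a2 and Aldh9a1, chosen by name. The gene name column of the arrays held accessions, so the genes were found through their RefSeq accessions, which gave 12 of the 41174 probes on the array and all 10 of the genes among 15980 genes with a name.

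The cells were TM3, a line of mouse Leydig cells. MAA was given at 5 mM or at 1 mM, with RNA taken after 3 h, after 8 h and after 24 h, and the controls were untreated cells of the same time. Each of the 6 treatments was compared with its control on 2 arrays, called replicates 1 and 2, which held separate pools of 3 MAA-treated cultures and carried the dyes exchanged. The values of a treatment are log2 ratios of MAA-treated over control cells, and its 2 arrays lay on different slides out of 3, so each array gives a value from a single slide. A gene was called higher or lower where the unadjusted p of the limma fit was under 0.005 and the ratio passed 2-fold at 5 mM or 1.5-fold at 1 mM, and an adjusted p was computed over all probes on the array. The labels do not say which arrays share a pool of control RNA, so values at 5 mM and 1 mM of the same time may rest on the same control cultures, and values at the same time are given side by side. TM3 is a cell line, and p-values measure the spread between arrays of a treatment, which differ in culture pool, dye orientation and slide together.

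Between 61.5% and 70.5% of probes were well above background in a channel. Of the 12 probes, 9 were well above background in both channels of all 12 arrays, and those for Aldh1a2, Aldh1a3 and Aldh3a1 were not. Of 9 Leydig cell markers, 3 (Star, Cyp17a1 and Insl3) were well above background in the control channel of all 12 arrays and 4 in none of them, among them Lhcgr, the receptor for luteinizing hormone, and Cyp11a1, the side-chain cleavage enzyme that begins steroid synthesis. Of 5 Sertoli cell markers, Wt1 and Sox9 were well above background in every channel, and Amh, Fshr and Dmrt1 in 2 or fewer control channels. Of 5 germ cell markers, Ddx4, Prm1 and Tnp1 were well above background in every channel, Dazl in 1 control channel and Sycp3 in 5. Adgre1, a macrophage marker, was well above background in no control channel but in the MAA channel of 4 arrays, all of them at 24 h, where it was at least 4.29-fold higher at 5 mM and at least 4.54-fold higher at 1 mM. The other Adgre1 probe was not called at either concentration, being at 0.17 (5 mM) and 0.41 (1 mM) on the log2 scale at 24 h, and Ptprc, found on all white blood cells, was well above background in no channel. At 5 mM and 24 h Insl3, a Leydig cell hormone, fell by 1.11 on the log2 scale, and Cyp11a1 was at least 2.36-fold higher. Another, dimmer Cyp11a1 probe was called higher at 24 h at both concentrations, at 2.61 (5 mM) and 1.34 (1 mM) on the log2 scale. At 3 h Sox9 was called higher at both concentrations, at 1.37 (5 mM) and 0.80 (1 mM) on the log2 scale, while another of its probes was called lower at 5 mM, at -1.41. The part of these markers in the results at 3 and 24 h was not tested.

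Sequence upstream of the start is shown for genes whose changes differed in direction: Adh1 and Adh7, which are neighbours on chromosome 3 in the RefSeq annotation, and Aldh1a1 and Aldh1a2, which encode retinal dehydrogenases. RefSeq windows of build GRCm38.p6 were at hand for 7 of the 10 genes. Each sequence below holds the 250 bases before an annotated start, 5′ to 3′ on the strand of the gene, with capitals for any match, on either strand, to the GC box core GGGCGG, the nuclear receptor element AGGTCA, the Ah receptor core GCGTG, the antioxidant element core TGACNNNGC, CCAAT or TATAAA. The windows are chr3:138277335-138277584 for Adh1, chr3:138217523-138217772 for Adh7, chr19:20601718-20601967 for Aldh1a1, which is the downstream window of its 2, and chr9:71215539-71215788 for Aldh1a2, all on the plus strand.
Adh1: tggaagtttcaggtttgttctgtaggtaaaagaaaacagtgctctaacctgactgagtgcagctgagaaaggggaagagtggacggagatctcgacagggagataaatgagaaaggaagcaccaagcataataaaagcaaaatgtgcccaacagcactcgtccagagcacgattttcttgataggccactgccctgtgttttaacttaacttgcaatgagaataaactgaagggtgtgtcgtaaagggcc
Adh7: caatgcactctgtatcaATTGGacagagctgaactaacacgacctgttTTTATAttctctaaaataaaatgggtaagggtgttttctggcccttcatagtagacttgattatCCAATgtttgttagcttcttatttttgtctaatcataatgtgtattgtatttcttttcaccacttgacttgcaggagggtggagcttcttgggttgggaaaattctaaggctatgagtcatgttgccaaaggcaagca
Aldh1a1: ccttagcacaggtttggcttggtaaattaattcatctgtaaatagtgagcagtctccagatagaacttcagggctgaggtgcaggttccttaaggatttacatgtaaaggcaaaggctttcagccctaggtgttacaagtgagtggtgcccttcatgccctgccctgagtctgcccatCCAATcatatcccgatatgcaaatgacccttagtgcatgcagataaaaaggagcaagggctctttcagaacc
Aldh1a2: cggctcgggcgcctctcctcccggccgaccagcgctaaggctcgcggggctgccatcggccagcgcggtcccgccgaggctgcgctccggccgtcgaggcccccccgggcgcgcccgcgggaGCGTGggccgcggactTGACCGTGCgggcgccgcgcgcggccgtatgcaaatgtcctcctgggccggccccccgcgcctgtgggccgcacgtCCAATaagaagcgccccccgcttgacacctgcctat
The Adh1 window held none of the 6 motifs. The Adh7 window held CCAAT on the minus strand 233 bases before the start and on the plus strand 138 bases before it, and TATAAA on the minus strand at 202 bases. The Aldh1a1 window held CCAAT at 72 bases, and the Aldh1a2 window held GCGTG at 128, TGACNNNGC at 112 and CCAAT at 36 bases. CCAAT was present in 33.8%, GCGTG in 28.2%, TATAAA in 12.4% and TGACNNNGC in 10.2% of 32851 windows of the same length, and GGGCGG, in 32.7% of them, and AGGTCA, in 14% of them, were not found in these 4. The window of Aldh1a2 had 77.6% G and C bases, that of Adh7 had 38%, and those of Adh1 and Aldh1a1 had 44.8% and 46.4%, against a median of 52.4% over all windows.

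Of the 10 genes, 5 were called in at least 1 treatment, as were 12.8% of all probes and 13.9% of named genes taken by 1 probe each. Aldh3a1 and Aldh1a2 fell at 5 mM, and at 1 mM Aldh3a1 and Aldh1a1 fell while Adh1, Aldh1a2 and Aldh1a3 rose. Adh5, Adh7, Aldh2, Aldh3a2 and Aldh9a1 passed the fold threshold in no treatment. By treatment, 1 of the 10 genes was called at 5 mM and 3 h, 2 at 8 h and none at 24 h by limma, where 3.76%, 5.55% and 5.62% of all probes on the array were called. All of these were lower, as were 1.74%, 2.49% and 1.77% of all probes, while 2.02%, 3.06% and 3.85% of all probes were higher. At 1 mM, 1 was called at 3 h, 2 at 8 h and 4 at 24 h, where 1.95%, 2.37% and 4.68% of all probes were called. At 1 mM, 0, 1 and 3 of the genes were higher, against 1.32%, 1.72% and 3.26% of all probes, and 1 was lower at each time, against 0.627%, 0.656% and 1.41%. With an adjusted p under 0.05 and no fold threshold, 2, 7 and 3 of the genes passed at 3, 8 and 24 h of 5 mM, against 24%, 30.4% and 30.4% of all probes, and 1, 0 and 4 at 1 mM, against 4.62%, 5.53% and 11.3%. At 5 mM and 24 h 4 of the 10 genes had an unadjusted p under 0.05, 3 of them with a ratio above 1. The median log2 ratio of the 10 genes was between -0.10 and 0.26 over the 6 treatments, and that of all probes between -0.10 and 0.03.

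**Figure D1:**
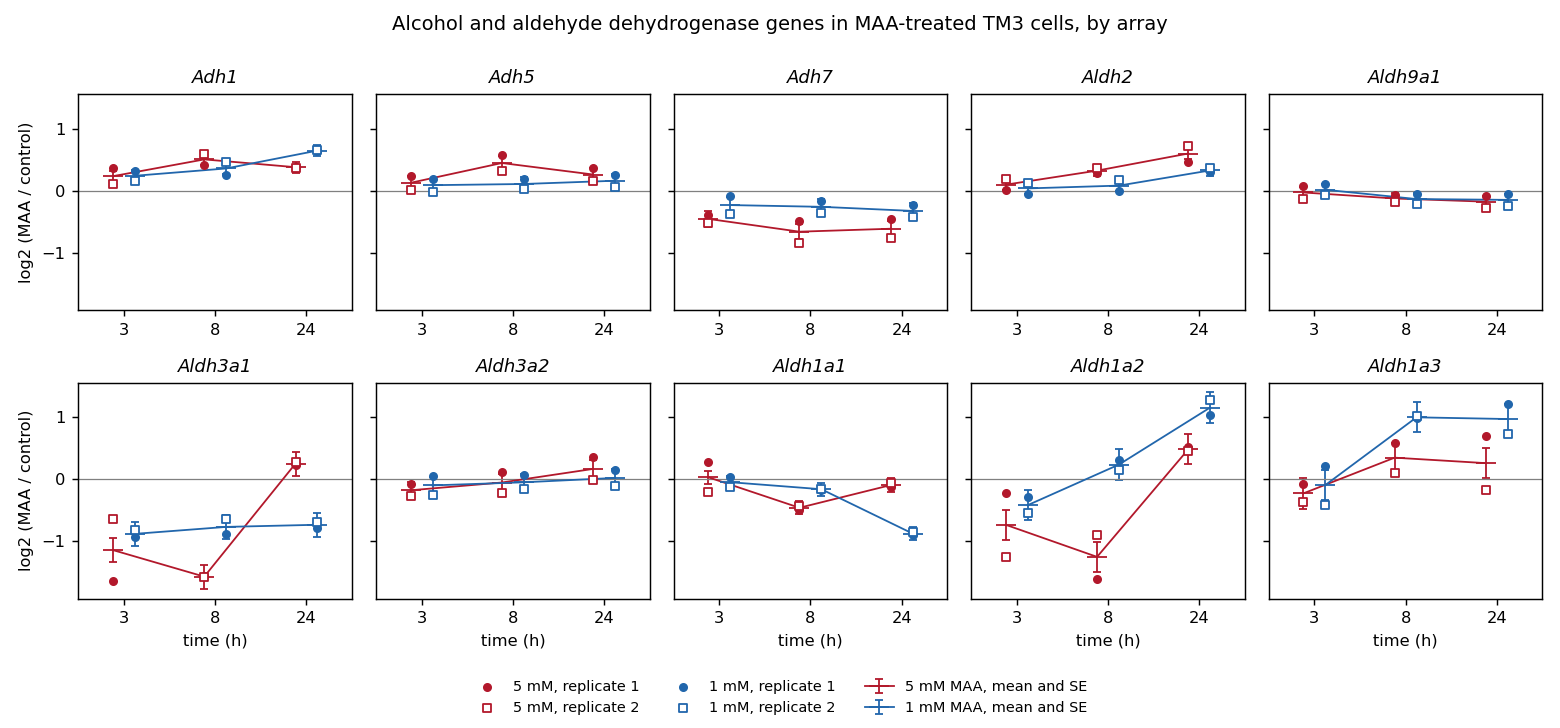
Log2 ratio of MAA-treated over control TM3 cells for each of the 10 genes (representative probe) against time of treatment in hours, with filled circles for replicate 1, open squares for replicate 2, and bars for the mean and its SE from the fit, in red for 5 mM and blue for 1 mM MAA. Aldh3a1 lies below 0 except at 5 mM and 24 h, Aldh1a2 goes from -1.26 at 5 mM and 8 h to 1.16 at 1 mM and 24 h, and Adh1 and Adh7 stay above and below 0, respectively, on all 12 arrays.

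Among the alcohol dehydrogenases, Adh1 encodes the class I enzyme, which oxidizes ethanol and retinol. Its log2 ratio was above 0 on all 12 arrays with both of its probes. For the representative probe the values on replicates 1 and 2 at 5 mM were 0.36 and 0.11 at 3 h, 0.43 and 0.60 at 8 h, and 0.39 and 0.38 at 24 h. At 1 mM they were 0.32 and 0.17 at 3 h, 0.25 and 0.47 at 8 h, and 0.65 and 0.66 at 24 h. The last pair was the highest, and both arrays at 1 mM and 24 h lay above every other array with this probe. With the other probe these arrays were at 0.79 and 0.65, and replicate 2 at 5 mM and 8 h, at 0.75, lay between them. Adh1 rose 1.57-fold at 1 mM and 24 h (log2 ratio 0.65, SE 0.09, adjusted p = 0.00478), and its other probe rose 1.65-fold. With normexp background correction and loess the log2 ratio was 0.50, under the fold threshold. This setting adds an offset of 50 to both channels, which draws the ratios of dim probes toward 0. At 5 mM and 8 h the ratio of 1.42-fold (SE 0.09 on the log2 scale, adjusted p = 0.00359) did not reach 2-fold. The 24 h ratio at 5 mM differed from that at 1 mM by -0.27 (SE 0.13, adjusted p = 0.27), a difference not past the test.

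Adh7 encodes the class IV enzyme, an efficient retinol dehydrogenase of epithelia, and lies next to Adh1. Its log2 ratio was below 0 on all 12 arrays. On replicates 1 and 2 it was -0.39 and -0.51 at 3 h, -0.48 and -0.84 at 8 h, and -0.46 and -0.77 at 24 h of 5 mM MAA. At 1 mM it was -0.09 and -0.37 at 3 h, -0.16 and -0.36 at 8 h, and -0.23 and -0.42 at 24 h. Replicate 2 was lower than replicate 1 in all 6 treatments, with means of -0.55 and -0.30, and the replicates differ in which dye marked the MAA-treated cells. At 5 mM the ratios were 1.37-fold, 1.58-fold and 1.53-fold lower at 3, 8 and 24 h, with adjusted p = 0.0338, 0.00518 and 0.00766, all under the 2-fold threshold. At 1 mM no adjusted p was below 0.151. Of all probes on the array, 12.9% kept the same sign on all 12 arrays, as 3 of the 12 probes described here did, the pair for Adh1 and the probe for Adh7.

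Adh5 encodes the class III enzyme, which oxidizes the glutathione adduct of formaldehyde. Its log2 ratio was between -0.01 and 0.58 on the 12 arrays, and it was above 0 on 11 of them. The highest mean was 0.45 at 5 mM and 8 h (SE 0.11, adjusted p = 0.0143), with 0.58 on replicate 1 and 0.33 on replicate 2. Replicate 1 was above replicate 2 in all 6 treatments, the order seen for Adh7.

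Aldh2 encodes the mitochondrial enzyme that clears acetaldehyde and also oxidizes methoxyacetaldehyde, the precursor of MAA. Its log2 ratio on replicates 1 and 2 was 0.01 and 0.19 at 3 h, 0.28 and 0.37 at 8 h, and 0.48 and 0.74 at 24 h of 5 mM MAA. At 1 mM it was -0.05 and 0.13 at 3 h, 0.00 and 0.17 at 8 h, and 0.30 and 0.36 at 24 h. Both arrays at 24 h lay above those at 3 h at each concentration. At 5 mM and 24 h the ratio was 1.52-fold (log2 0.61, SE 0.09, adjusted p = 0.00188), under the 2-fold threshold, and it exceeded that at 3 h by 0.51 on the log2 scale (SE 0.13, adjusted p = 0.0364). This difference between times had adjusted p-values between 0.0453 and 0.192 when single arrays were left out, and it was past the test without either 1 mM, 3 h array but not without any of the other 10 arrays. Centred on the median of each array it was 0.39, with an adjusted p of 0.283.

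Another probe, designed on an expressed sequence tag, carries the name Aldh2 in the supplementary tables of the study, which list genes that responded to MAA. It was not found through a RefSeq accession, was not counted among the 12 probes and was chosen after its response was known, so its values are a description. Its log2 ratio was 0.99 and 1.20 at 5 mM and 3 h and 0.52 and 0.76 at 1 mM and 3 h on replicates 1 and 2, where the RefSeq probe of Aldh2 had means of 0.10 and 0.04. At 24 h it was 0.42 at 5 mM and -0.04 at 1 mM. Whether both probes report the same transcript was not tested.

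Aldh9a1 encodes an enzyme that oxidizes aminobutyraldehydes. Its probes had mean log2 ratios between -0.20 and 0.07, and the lowest adjusted p of either probe was 0.113. Aldh3a2, the fatty aldehyde dehydrogenase, had means between -0.18 and 0.17, with single arrays between -0.28 and 0.35 and replicate 1 above replicate 2 in all 6 treatments. No ratio of either gene passed the test.

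Aldh3a1, the neighbour of Aldh3a2 on chromosome 11, encodes a dehydrogenase of medium-chain and aromatic aldehydes whose gene is known as a target of the Ah receptor. Of the 10 genes it was called lower in the most treatments (4 of 6), with 3 h MAA channels not all well above background. The probe that measured it is 60 bases long, and its sequence is given because these falls rest on it alone; a reading frame runs through its whole length without a stop codon.
Aldh3a1 probe: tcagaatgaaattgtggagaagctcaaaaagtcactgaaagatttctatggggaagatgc
At 5 mM the log2 ratio on replicates 1 and 2 was -1.65 and -0.65 at 3 h, -1.57 and -1.59 at 8 h, and 0.23 and 0.27 at 24 h. At 1 mM it was -0.95 and -0.83 at 3 h, -0.90 and -0.65 at 8 h, and -0.79 and -0.69 at 24 h. All 10 arrays other than those at 5 mM and 24 h were below 0, and the pair at 3 h of 5 mM were the least alike. Aldh3a1 was 2.99-fold lower at 5 mM and 8 h (log2 ratio -1.58, SE 0.20, adjusted p = 0.000694), a call that was kept when each of the 12 arrays was left out. At 5 mM and 3 h neither array had an MAA channel well above background, so that the gene was at least 1.83-fold lower (adjusted p = 0.0042). This bound is under the 2-fold threshold, which the ratio of the fit passed. Without replicate 1 the log2 ratio was -0.65 and the call was lost, as it also was with 5 mM fitted alone (unadjusted p = 0.00514). At 1 mM it was 1.85-fold lower at 3 h (SE 0.20 on the log2 scale, adjusted p = 0.0494) and 1.71-fold lower at 8 h (SE 0.20, adjusted p = 0.068). In the 1 mM, 3 h treatment the MAA channel of replicate 1 was not well above background. The 1 mM, 3 h call was lost without either of its own arrays, where the log2 ratio was -0.83 and -0.95, and the 1 mM, 8 h call was lost without any array but the 5 mM, 3 h pair, with log2 ratios between -0.90 and -0.65. With normexp correction the log2 ratios were -0.23 at 5 mM and -0.16 at 1 mM for 3 h, and neither was called. The offset of 50 was above every signal of the gene at 3 h, so normexp could not test these calls. At 1 mM and 24 h the log2 ratio of -0.74 (adjusted p = 0.0523) was not called, though it was with the replicate as a block.

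The response of Aldh3a1 to 5 mM MAA differed between 24 h and the earlier times. The log2 ratio at 24 h was higher than at 8 h by 1.83 (SE 0.28, adjusted p = 0.00877) and higher than at 3 h by 1.40 (SE 0.28, adjusted p = 0.0142), where the 3 h ratio is only a bound and the size of this difference was therefore not measured. The difference between 24 and 8 h lost its call without any of the 4 arrays it compares, with values between 1.81 and 1.85 and a highest adjusted p of 0.0627, and that between 24 and 3 h without either 24 h array, with values between 0.90 and 1.90 over all arrays left out and a highest adjusted p of 0.0766. With normexp correction the latter was 0.45 and still called, and neither was called with 5 mM fitted alone, at adjusted p = 0.0919 for 8 h and 0.0881 for 3 h. The 5 mM and 1 mM ratios at 24 h were 0.25 and -0.74, and the difference of 0.99 (SE 0.28) had an adjusted p of 0.0741. With the replicate as a block this difference was called.

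The channels of the arrays were also put on a common scale (Aquantile) so that the level in control cells could be followed over time, as a description with no test. In control cells the scaled signal of Aldh3a1 was between 21.7 and 38.1 at 3 h, between 217 and 245 at 8 h and between 88.5 and 92.2 at 24 h, on 4 arrays at each time. It was therefore highest at 8 h, and the ranges at the 3 times did not overlap. With 5 mM MAA it was 79.0 and 71.8 at 8 h, under all controls, and 108 and 107 at 24 h, above all controls. With 1 mM MAA it was 132 and 138 at 8 h and 52.6 and 56.9 at 24 h, under the controls at both times.

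**Figure D2:**
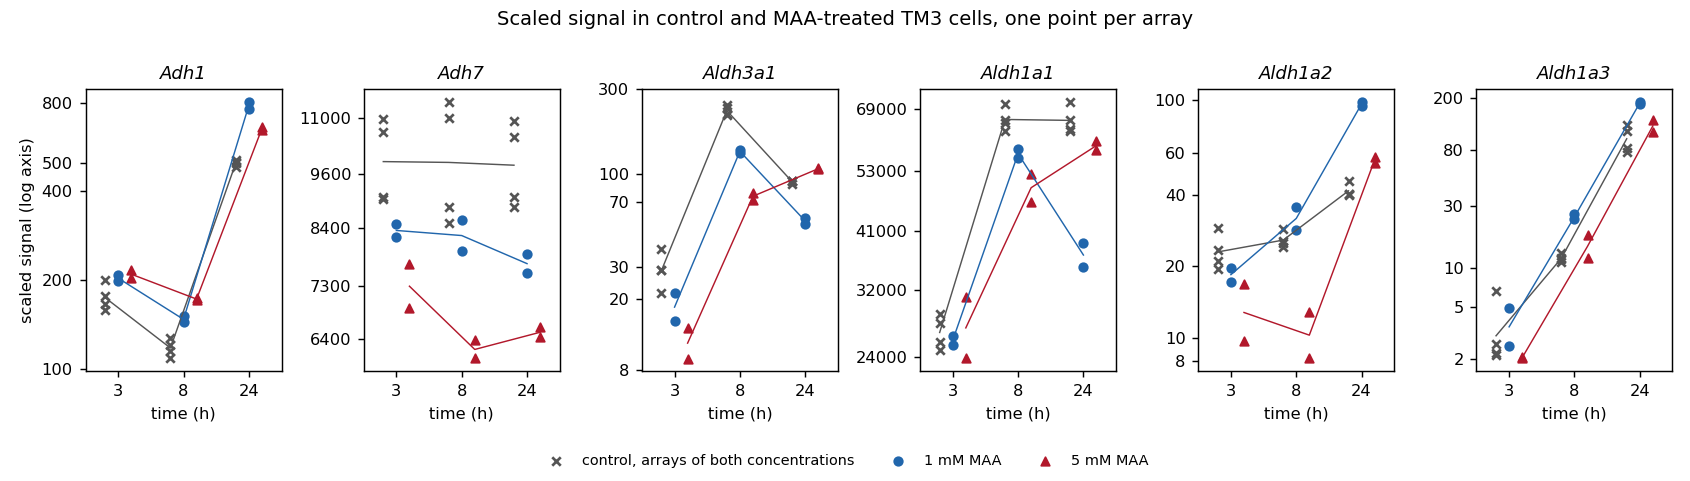
Scaled signal (arbitrary units, log axis) of 6 genes against time in hours, with 1 point per array for control cells (grey crosses, arrays of both concentrations), 1 mM MAA (blue circles) and 5 mM MAA (red triangles), and lines through the mean log2 values. Control cells reach 217 to 245 for Aldh3a1 at 8 h, the controls of Aldh1a1 lie at 62812 or above at 8 and 24 h while 1 mM MAA is at 35142 and 39072 at 24 h, and no channel of Aldh1a3 was well above background at 3 h.

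The genes Aldh1a1, Aldh1a2 and Aldh1a3 encode the retinal dehydrogenases, cytosolic enzymes that form retinoic acid. All 3 were called at 1 mM and 24 h, Aldh1a1 lower and the other 2 higher. Aldh1a1 had log2 ratios on replicates 1 and 2 of 0.28 and -0.22 at 3 h, -0.50 and -0.43 at 8 h, and -0.13 and -0.06 at 24 h of 5 mM MAA. At 1 mM they were 0.03 and -0.13 at 3 h, -0.17 and -0.16 at 8 h, and -0.91 and -0.86 at 24 h. Both arrays at 1 mM and 24 h lay below all others. The fall was 1.84-fold (log2 ratio -0.88, SE 0.11, adjusted p = 0.00329), and the call was kept when each array was left out. The ratio at 24 h was higher at 5 mM than at 1 mM by 0.79 on the log2 scale (SE 0.15, adjusted p = 0.0223), a difference that lost its call without any of the 4 arrays compared (0.75 to 0.82, highest adjusted p 0.123). At 1 mM the ratio at 24 h was below that at 3 h by 0.83, a log2 difference of -0.83 (SE 0.15, adjusted p = 0.0462), which lost its call without any array but the 5 mM, 3 h pair (-0.92 to -0.75, highest adjusted p 0.215). Neither difference was called with normexp correction or median centring, at adjusted p = 0.0560 and 0.0547 for the first and 0.152 and 0.0940 for the second.

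The scaled signal of Aldh1a1 in control cells was between 24745 and 28808 at 3 h, between 62812 and 70453 at 8 h and between 62812 and 70962 at 24 h. The 8 h and 24 h levels overlapped and lay above those at 3 h. With 1 mM MAA it was 55870 and 58133 at 8 h but 35142 and 39072 at 24 h, and with 5 mM it was 46489 and 52346 at 8 h and 57974 and 60082 at 24 h. The order of the concentrations was thus the opposite at the 2 times. At 8 h the log2 difference of -0.30 between 5 mM and 1 mM (SE 0.15, adjusted p = 0.31) was not past the test.

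Aldh1a2 encodes the retinal dehydrogenase that makes most of the retinoic acid of the embryo. Its log2 ratio on replicates 1 and 2 was -0.22 and -1.26 at 3 h, -1.62 and -0.91 at 8 h, and 0.52 and 0.45 at 24 h of 5 mM MAA. At 1 mM it was -0.29 and -0.56 at 3 h, 0.32 and 0.16 at 8 h, and 1.05 and 1.28 at 24 h. It was below 0 on all arrays at 3 h and above 0 on all arrays at 24 h, and at 8 h the 2 concentrations lay on opposite sides of 0. At 5 mM and 8 h neither array had an MAA channel well above background, and the gene was at least 2.31-fold lower (log2 ratio -1.26, SE 0.25, adjusted p = 0.00612). Without replicate 1 the log2 ratio was -0.91, and the call was lost. At 1 mM and 24 h Aldh1a2 was 2.24-fold higher (log2 ratio 1.16, SE 0.25, adjusted p = 0.0248), a call that was lost without either of its arrays, at 1.28 and 1.05. With normexp correction the log2 ratios were -0.36 and 0.42 and neither was called. The offset of 50 was above every signal at 5 mM and 8 h, so normexp could not test that call or differences from it. With the slide as a block the log2 ratios were -1.17 and 1.12 and neither was called.

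For Aldh1a2 the ratio at 8 h was lower at 5 mM than at 1 mM on the log2 scale, with a difference of -1.498 (SE 0.35, adjusted p = 0.0365). The ratio at 5 mM was higher at 24 h than at 8 h by 1.75 (SE 0.35, adjusted p = 0.0232). The ratio at 5 mM and 8 h is only a bound, so the size of these differences was not measured. The difference between concentrations was lost without any array but the 5 mM, 3 h pair (-1.85 to -1.14, highest adjusted p 0.185), with the slide as a block its adjusted p was 0.0532, and with normexp correction it was -0.42 with an adjusted p of 0.111. The difference between times was lost without either 5 mM, 24 h array or replicate 1 at 5 mM and 8 h (1.39 to 2.10, highest adjusted p 0.128), with the slide as a block (adjusted p = 0.0631) and with 5 mM fitted alone (adjusted p = 0.138), and with normexp correction it was 0.68. The scaled signal in control cells was between 19.5 and 29.0 at 3 h, between 24.1 and 28.6 at 8 h and between 39.9 and 45.8 at 24 h. With 5 mM MAA it was 8.18 and 12.9 at 8 h and 57.4 and 54.5 at 24 h, and with 1 mM MAA it was 94.6 and 97.9 at 24 h.

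Aldh1a3 encodes the third enzyme of the group. At 1 mM its log2 ratio on replicates 1 and 2 was 0.22 and -0.41 at 3 h, 0.99 and 1.02 at 8 h, and 1.21 and 0.74 at 24 h. At 5 mM it was -0.09 and -0.38 at 3 h, 0.59 and 0.10 at 8 h, and 0.70 and -0.18 at 24 h. The 1 mM arrays at 8 and 24 h were the 4 highest, and the 5 mM arrays at the same times spread more widely. At 3 h no channel was well above background, and no fold is given. At 5 mM and 8 h neither channel of replicate 2 was well above background. The signals at 1 mM and 8 h were between 10.5 and 21.8, so the 8 h ratios also rest on dim channels. Aldh1a3 was 2.00-fold higher at 1 mM and 8 h (SE 0.25 on the log2 scale, adjusted p = 0.0614) and 1.97-fold higher at 24 h (SE 0.25, adjusted p = 0.0443). Both calls were lost without any array but the pairs at 1 mM, 3 h and 5 mM, 24 h. The log2 ratios were then 0.99 to 1.02 at 8 h and 0.74 to 1.21 at 24 h. With normexp correction they were 0.28 and 0.55. The offset of 50 was above every signal at 1 mM and 8 h, so normexp could not test that call. The 5 mM and 1 mM ratios at 24 h differed by -0.72 (SE 0.35, adjusted p = 0.291), a difference not past the test. In control cells the scaled signal was between 11.1 and 12.96 at 8 h and between 77.6 and 125 at 24 h.

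Counted over the 10 genes, limma found no difference between 5 mM and 1 mM at 3 h, 1 at 8 h (Aldh1a2) and 1 at 24 h (Aldh1a1) at an adjusted p under 0.05, where 3.4%, 10.1% and 8.41% of all probes differed. At 3 h, 0 of the 10 had an unadjusted p under 0.05. This fit leaves out the replicate number, and with it as a block there were 8 differences between concentrations and 9 between times. Between times at 5 mM, no gene differed between 8 and 3 h, 2 differed between 24 and 8 h (Aldh3a1 and Aldh1a2) and 2 between 24 and 3 h (Aldh3a1 and Aldh2), where 5.1%, 8.91% and 15.8% of all probes did. At 1 mM, limma found no gene between 8 and 3 h or between 24 and 8 h and 1 between 24 and 3 h (Aldh1a1), where 0%, 0.576% and 1.85% of all probes did. In the comparisons with no call the number at an unadjusted p under 0.05 was 1 for 8 against 3 h at 5 mM, 1 for 8 against 3 h at 1 mM and 2 for 24 against 8 h at 1 mM.

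The genes outside the 10 whose log2 ratios over the 12 arrays were most like those of a gene called at 5 mM were found among 10567 genes well above background in a channel of every array. For Aldh3a1 they were Krt8, a keratin of simple epithelia (Pearson r 0.951), Ly6e (0.938) and Dbn1, an actin-binding protein (0.934). For Aldh1a2 they were Ppp1r3b, a glycogen-targeting subunit of protein phosphatase 1 (0.967), Krt14, a keratin of basal epithelia (0.951), and Fads1, a fatty acid desaturase (0.949). The sizes differed, as Krt8 was at -0.54 (8 h) and 1.84 (24 h) on the log2 scale at 5 mM MAA against -1.58 and 0.25 for Aldh3a1. The directions differed at 1 mM, where Krt8 was at 0.14, 0.26 and 0.41 at 3, 8 and 24 h. Aldh3a1 was at -0.89, -0.78 and -0.74 there, and Ly6e and Dbn1 were above 0 at each of these times. The arrays of a treatment share a time and a concentration, arrays of different treatments share slides, and these values are a description.

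Of 17 other alcohol and aldehyde dehydrogenase genes, 14 were measured, and 4 were called in at least 1 treatment, beside 13.9% of named genes. At 5 mM none was called at 3 or 8 h by limma and 3 were called at 24 h, where 3.76%, 5.55% and 5.62% of all probes were called. At 3 and 8 h 6 and 8 had an adjusted p under 0.05, against 24% and 30.4% of all probes. At 1 mM only 1 was called, at 24 h, where 4.68% of all probes were. Aldh1a7, a close relative and neighbour of Aldh1a1 on chromosome 19, rose 3.12-fold at 5 mM and 24 h (1.53 and 1.74 on replicates 1 and 2, SE 0.11), and its ratio there was higher than at 1 mM by 1.64 on the log2 scale (SE 0.15, adjusted p = 0.0019). In the same treatment Aldh1a1 had a log2 ratio of -0.10, and the 1 mM, 24 h ratio of Aldh1a7 was 0.00 where that of Aldh1a1 was -0.88. How far either probe also detects the other gene was not tested. Adh4, the neighbour of Adh5 on chromosome 3, was at least 2.23-fold higher at 5 mM and 24 h, with no control array well above background. Aldh1l2, the mitochondrial formyltetrahydrofolate dehydrogenase, fell 3.12-fold at 5 mM and 24 h (-1.67 and -1.62, SE 0.06). Its other probe was at -1.38 there and was also called lower at 1 mM and 8 h, at -0.65, where the representative probe was at -0.56 and not called. Aldh1l1, its cytosolic relative, rose 2.94-fold at 1 mM and 24 h (1.48 and 1.63, SE 0.31).

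**Figure D3:**
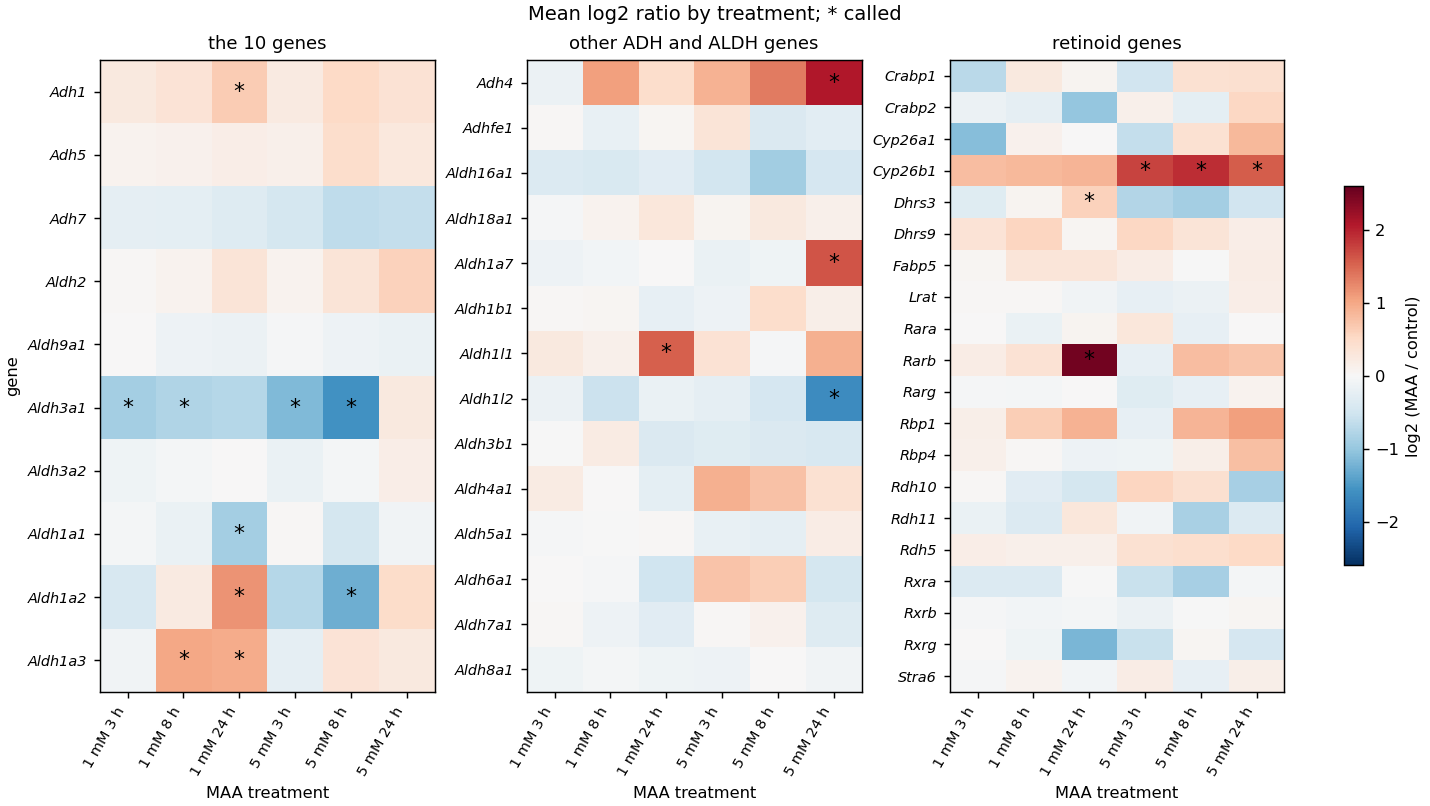
Mean log2 ratio of MAA-treated over control cells (colour scale, red higher and blue lower) by gene (rows, representative probe) and treatment (columns), for the 10 genes, 14 other alcohol and aldehyde dehydrogenase (ADH and ALDH) genes and 20 retinoid genes, with an asterisk where the gene was called. Among the genes called are Rarb at 1 mM and 24 h (2.51) and Aldh1a7 and Aldh1l2 at 5 mM and 24 h (1.64 and -1.64). Some values drawn rest on a channel not well above background. Called ones with such a channel on both arrays at 5 mM are Adh4 (24 h), Aldh3a1 (3 h), Aldh1a2 (8 h) and Cyp26b1 (3 h). Rarb at 5 mM and 24 h and Aldh1a3 at 3 h are drawn with neither channel well above background.

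Genes of retinoid transport, metabolism and signalling were taken as the pathway in which the retinol and retinal dehydrogenases act. Of 21 genes 20 were measured, and 3 were called in at least 1 treatment, each of them higher, beside 13.9% of named genes called in either direction. Cyp26b1, which degrades retinoic acid, rose at all 3 times of 5 mM MAA: it was at least 2.42-fold higher at 3 h, where the control channel was not well above background, 3.77-fold at 8 h and 2.99-fold at 24 h (log2 ratios 1.91 and 1.58, SE 0.31). At 1 mM its log2 ratio was 0.80, 0.85 and 0.88 at 3, 8 and 24 h, not called. Rarb, a retinoic acid receptor, rose 5.69-fold at 1 mM and 24 h (2.27 and 2.75 on replicates 1 and 2, SE 0.17, adjusted p = 0.000371), with 1 of its 2 control channels well above background. Neither channel was well above background at 5 mM and 24 h, and no value is given. Dhrs3, which reduces retinal to retinol, rose 1.52-fold at 1 mM and 24 h (SE 0.14 on the log2 scale, adjusted p = 0.0367), and its ratios at 8 and 24 h were lower at 5 mM than at 1 mM by 0.95 and 1.10, log2 differences of -0.95 and -1.10 (SE 0.20). A further Dhrs3 probe was called lower at 5 mM and 8 h, at -1.09, and higher at 1 mM and 24 h, at 0.77. At 1 mM and 24 h, where Aldh1a2 and Aldh1a3 were called higher and Aldh1a1 lower, 2 of the 20 retinoid genes were called, both higher, where 3.26% of all probes were higher.

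Of 7 other enzymes that handle alcohols, aldehydes and short acids, 2 were called, beside 13.9% of named genes. Acss2, which joins acetate to coenzyme A, rose 3.00-fold at 8 h and 3.59-fold at 24 h of 5 mM MAA. At 1 mM it rose 1.51-fold and 1.74-fold at these times (SE 0.08 on the log2 scale throughout). Its other probe was not called at 1 mM and 8 h, with a log2 ratio of 0.51, but was called in the other treatments named. Akr1b3, the aldose reductase, rose 2.02-fold at 5 mM and 24 h (SE 0.06). Of 8 Ah receptor and NRF2 target genes other than Aldh3a1, 7 were measured and 2 were called, beside 13.9% of named genes. The rest of the list was called in no treatment. Cyp1a1, the classical target of the Ah receptor, was 5.74-fold and 8.00-fold higher at 8 and 24 h of 5 mM MAA and 2.03-fold higher at 8 h of 1 mM (SE 0.19 on the log2 scale), while Aldh3a1 was lower at 8 h at both concentrations and had 0.25 at 5 mM and 24 h. Gsta1, a glutathione transferase, fell 2.26-fold and 2.20-fold at 8 and 24 h of 5 mM MAA (SE 0.08).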

How the data were processed

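RNA of TM3 cells was measured on 12 two-colour Agilent arrays, 2 for each of 6 MAA treatments, each holding a pool of 3 MAA-treated cultures against untreated cells, with dyes exchanged between replicates. Per the file headers, the deposited intensity values were background-subtracted, detrended and dye-normalized within each array by Feature Extraction 9.5.3.1. The deposited value table gives log10 ratios, turned to MAA over control, and served as an alternative. The authors' error model (Rosetta Resolver) was not run.

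Control spots and outlier spots (124 to 208 per array) were left out, spots of a probe were averaged, and log2 ratios were fitted with limma 3.58.1 in R 4.3.3, with 1 coefficient per treatment over all 12 arrays (6 residual and 1.52 prior degrees of freedom). Treatments were called at an unadjusted p under 0.005 and 2-fold (5 mM) or 1.5-fold (1 mM), and differences between treatments at a Benjamini-Hochberg adjusted p under 0.05 over all probes. For levels over time, channels were scaled by Aquantile. A probe with 1 channel not well above background on both arrays of a group gives only a bound on the mean ratio. For that channel each array took its lowest signal well above background, or the channel's own signal where higher. The 2 arrays were then averaged, so a single array can lie below the bound. The fit was tested on simulated data.

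The gene name column held accessions, so 22082 of 41174 probes were named through RefSeq (GRCm38.p6). All 10 genes are described, each by its brightest probe where 1 value was needed, and genes of other lists were named where called. The genes and lists were chosen with earlier results of these data known. Alternatives were normexp with loess (offset 50), the deposited ratios, median centring, a filter on dim probes, outlier spots kept, and replicate and slide blocks. Others were 1 concentration alone, other call rules, the mean of a gene's probes, and leaving out each array. Replicate numbers mark dye orientation. The number of arrays limits the precision.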

Additional observations from a re-analysis of the deposited data

Results flagged for a closer look

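Responses to MAA differed between concentrations or times, tested as contrasts in the limma fit (adjusted p under 0.05), for 4 of the 10 genes. Aldh1a1 had a higher ratio at 5 mM than at 1 mM at 24 h (log2 difference 0.79), and at 1 mM a lower ratio at 24 h than at 3 h (-0.83). Aldh1a2 had a lower ratio at 5 mM than at 1 mM at 8 h (-1.498), and at 5 mM a higher ratio at 24 h than at 8 h (1.75). At 5 mM the ratio of Aldh2 was higher at 24 h than at 3 h (0.51), and that of Aldh3a1 was higher at 24 h than at 8 h (1.83) and at 3 h (1.40). The ratios of Aldh1a2 at 5 mM and 8 h and of Aldh3a1 at 5 mM and 3 h are only bounds. Each of these 7 differences lost its call when at least 1 of the 12 arrays was left out.

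In untreated cells at 24 h, the scaled signal of Aldh1a2 on replicate 1 of 1 mM MAA was 45.8, apart from the other 3 arrays, which lay between 39.9 and 40.4. It was the one value of its kind among 30 groups of 4 arrays, where chance sets apart about 1 group in 20.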

How the results depend on the processing

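No value of the 10 genes that was called changed direction in the other settings run, which were 23 for the treatments and 20 or 21 for differences between concentrations or times. The call of Aldh3a1 at 5 mM and 8 h was kept in all 23, and that of Aldh1a1 at 1 mM and 24 h in all but the 2-fold threshold at both concentrations. The counts of genes called moved as follows, and the cause was not tested except where the rule itself changed. With normexp and loess, whose offset of 50 draws the ratios of dim probes toward 0, they were 0 and 1 at 3 and 8 h of 5 mM. At 1 mM they were 0, 0 and 1 at 3, 8 and 24 h. With the slide as a block they were 1 at 5 mM and 8 h and 0 at 1 mM and 3 h. With 1 concentration fitted alone they were 0 and 1 at 3 and 8 h of 5 mM and 1 at 1 mM and 8 h, with 0 differences between times in place of 5. The deposited ratios gave 1 at 1 mM and 8 h, and so did median centring, which also gave 1 difference between concentrations in place of 2 and 3 between times. Without dim probes there were 9 differences between times. An adjusted p under 0.05 with no fold threshold gave 2, 7 and 3 genes at 3, 8 and 24 h of 5 mM and 0 at 1 mM and 8 h, and 2-fold at both concentrations gave 0, 1 and 1 at 3, 8 and 24 h of 1 mM. Leaving out single arrays gave counts of 1 to 1, 1 to 2 and 0 to 0 at 5 mM and of 0 to 1, 0 to 1 and 2 to 4 at 1 mM, with 0 to 4 differences between concentrations and 0 to 8 between times.

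With the replicate block there were 8 differences between concentrations and 9 between times. Those gained between concentrations were Adh5, Adh7 and Aldh2 at 8 h and Adh7, Aldh2 and Aldh3a1 at 24 h, and Aldh3a1 at 1 mM and 24 h was then called, so that the lack of a call for these in the fit without the block depends on it. Same-numbered arrays of different treatments deviated together, with a median r of 0.375 over all probes. The lowest of 15 pairs of treatments was at 0.0750, and 14 were over 0.1. Over probes well above background in a channel of every array the median r was 0.520 and the lowest 0.0394. The numbers mark the dye orientation, and the labels give no other pairing. Probes were reached only by accession, so that alternative equals the fit reported. Aldh1a2, Aldh1a3 and Aldh3a1 lay near background at 3 h, as did Aldh1a3 at 8 h and Aldh1a2 at 5 mM and 8 h. This limits what their ratios can show.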
